A study of Drosophila melanogaster with 23 samples.

Results

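The genes described here are the 100 whose expression ratios varied least between strains of Drosophila melanogaster, out of 822 genes that could be ranked. They were chosen by the SD of their log2 ratios over the 21 arrays that carried a different strain in each channel, each array centred on its median. A gene could be ranked when at least 1 of its features named that gene alone and had a value on 20 or more of the 21 arrays. Features of a gene were averaged, and genes with symbols starting RpL or RpS (3 genes) were left out. The series holds 6101 features, of which 1943 carry exactly 1 gene symbol. The low SD of the 100 genes is therefore the way they were picked, not a result. A pair of arrays with 1 strain in both channels took no part in the choice.

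Adult males of 8 strains were compared: Zimbabwe2, Zimbabwe29, Zimbabwe30, Zimbabwe53, Canton S, Oregon R, Hikone R and St Louis. All were raised at 25 °C without a day and night cycle, collected within a day of emerging, and then aged apart from females for 3 to 4 days. The labels state no treatment and no transgene. RNA came from extractions of 8 to 12 whole flies that were pooled into 1 sample per strain, so repeated arrays are technical, and errors given here cover the spread between arrays only. Of 23 spotted 2-colour cDNA arrays, 21 compared different strains in 13 pairings, and 8 of these pairings were hybridised with the channels exchanged. First and second array only name the arrays of a pairing. The remaining 2, called self arrays here, carried Canton S in both channels and Zimbabwe53 in both channels.

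A value is the logarithm of the ratio of the 2 channels. It was read as base 10, which the files do not state, and turned into log2. Which channel was the numerator is not known either, so a sign shows only the channel order as deposited and no strain is called higher. Arrays had values for 3272 to 4987 features. Spot intensities were not used here, so the signal behind a ratio is unknown, and a ratio carries no level from which a cell type could be checked. In RNA of whole flies, fewer cells of a type and less RNA per cell cannot be told apart, and a ratio is an average over all tissues.

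Many genes serve processes that nearly every cell runs: making and folding proteins, moving membranes, reading DNA, breaking down proteins and passing signals inward from the cell surface. Such genes are widely active in the fly, in contrast to genes of the gut, the cuticle, detoxification or the male germ line, which are used in few tissues or respond to food and surroundings. A 2-colour array shows how far a transcript differs between a pair of samples, relative to the typical transcript on that array.

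The SD of the 100 genes ran from 0.0947 to 0.173 on the log2 scale, with a median of 0.156, which corresponds to a scatter of 11.4% around the gene's own mean ratio. Over all 822 genes the median was 0.254, and over the 722 others it was 0.266, with a highest value of 2.52. The order is continuous at the limit of the choice. Just inside lay Glg1 (0.1733), CG5541 (0.1734) and gek (0.1735), and just outside bbc (0.1736), Isha (0.1736) and msk (0.1739), so these 6 genes differ only in the fourth decimal. Glg1 ran from -0.16 to 0.55 with a median of 0.26, CG5541 from -0.43 to 0.24 around 0 and gek from -0.18 to 0.49 with a median of -0.0026. Outside, bbc ran from -0.30 to 0.31, Isha from -0.54 to 0.20 and msk from -0.40 to 0.25, with medians of 0.063, -0.056 and -0.028. On the self arrays of Canton S and of Zimbabwe53, the 6 genes lay between -0.086 (Isha) and 0.11 (Glg1). The most distant strains differed by 1.27-fold in Glg1, 1.20-fold in CG5541 and 1.23-fold in gek, and by 1.30-fold in bbc, 1.16-fold in Isha and 1.22-fold in msk, estimated as described below. The genes on either side of the limit thus overlap in their values.

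**Figure D1:**
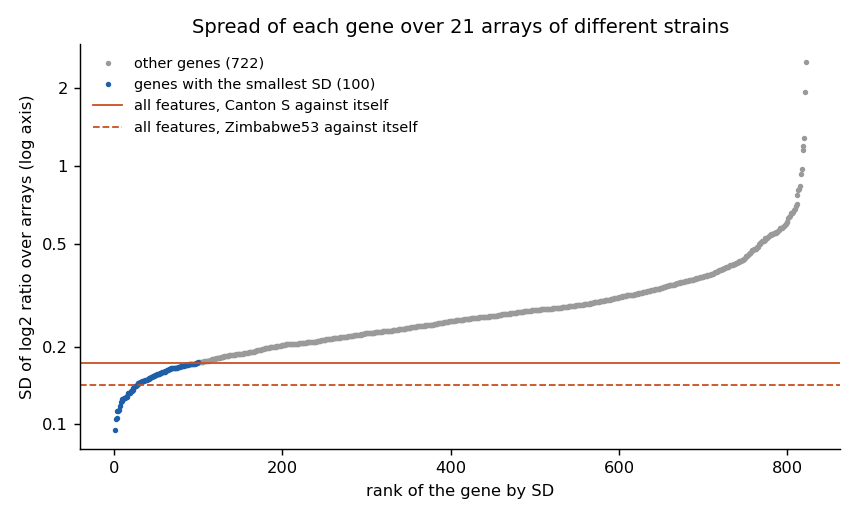
SD of the log2 ratio over the 21 arrays of different strains (vertical, log axis) for each of the 822 genes in order of rank (horizontal); blue points are the 100 genes chosen for the smallest SD, grey points the 722 others. The horizontal lines give the SD across all features on the array of Canton S against itself (0.173, solid) and of Zimbabwe53 against itself (0.143, dashed), a different quantity that is drawn for scale; 98 and 27 of the 100 genes lie below them.

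The members differed by small steps on every array. Of 2062 measured values of the 100 genes, 1 lay beyond 1.5-fold, compared with 1159 of 14886 values (7.79%) of the others. That value belonged to fd59A, a forkhead transcription factor, at 1.51-fold on the second array of Oregon R and Zimbabwe53. The largest ratio of a member on any array ranged from 1.15-fold to 1.51-fold, with a median of 1.28-fold. In the other genes the median was 1.54-fold, and 57.2% of them passed 1.5-fold on at least 1 array. A small SD on these arrays leaves little room for values beyond 1.5-fold, so these contrasts follow from the choice.

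The gene with the smallest SD was RanBPM, a scaffold protein named for binding the small GTPase Ran. Its rank is that of an average of 2 features, each with a larger SD (0.133 and 0.201). Its ratios ran from -0.21 to 0.14 with a median of -0.03 (SD 0.0947, 21 arrays), and it gave -0.05 on the array of Canton S against itself and 0.02 on that of Zimbabwe53. mfrn, which encodes mitoferrin, the importer of iron into mitochondria, ran from 0.004 to 0.35 with a median of 0.17 (SD 0.105). It lay at -0.21 for Canton S against itself, outside the range of its other arrays, and at 0.12 for Zimbabwe53 against itself. In mfrn all 21 arrays had the same sign, whichever strain was in which channel, so its ratios were steady around an offset and not around 0.

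tna, which encodes a partner of the Brahma chromatin remodelling complex, ran from -0.08 to 0.32 with a median of 0.13 (SD 0.106, 20 arrays) and gave -0.06 and 0.01 on the self arrays of Canton S and Zimbabwe53. CG7943 ran from -0.22 to 0.17 with a median of -0.03 (SD 0.112) and gave -0.06 and -0.07. Pcif1, a protein that binds the phosphorylated tail of RNA polymerase II, ran from -0.25 to 0.10 with a median of -0.03 (SD 0.113) and gave -0.13 and -0.12. The values of these genes on the self arrays fell within the range of their other arrays.

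CG33298, a predicted phospholipid-transporting ATPase, ran from -0.22 to 0.18 with a median of -0.04 (SD 0.114) and gave 0.02 and -0.12 on the self arrays of Canton S and Zimbabwe53. CG4617 ran from -0.25 to 0.15 with a median of -0.04 (SD 0.118) and gave 0.03 and 0.01. LBR, the lamin B receptor of the inner nuclear membrane, ran from -0.05 to 0.38 with a median of 0.17 (SD 0.123), and the 2 self arrays lay at 0.13 and 0.11, close to that median. Of these 3 genes, LBR alone was centred away from 0.

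CG16903 ran from -0.16 to 0.26 with a median of 0.03 (SD 0.123) and gave -0.02 and 0.17 on the self arrays of Canton S and Zimbabwe53. Sec71, an exchange factor for Arf GTPases at the Golgi, ran from -0.26 to 0.22 with a median of -0.03 (SD 0.125) and gave -0.08 and 0.0015. Both lay near 0 in the median. wnd, the kinase Wallenda of the stress pathway in axons, ran from -0.33 to 0.12 with a median of -0.03 (SD 0.125) and gave -0.09 and -0.05. Herp, an endoplasmic reticulum protein of the pathway that clears misfolded proteins, ran from -0.22 to 0.22 with a median of 0.04 (SD 0.126) and gave 0.0012 and 0.10. These genes fill the first 12 ranks, and none reached 1.5-fold on any array.

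**Figure D2:**
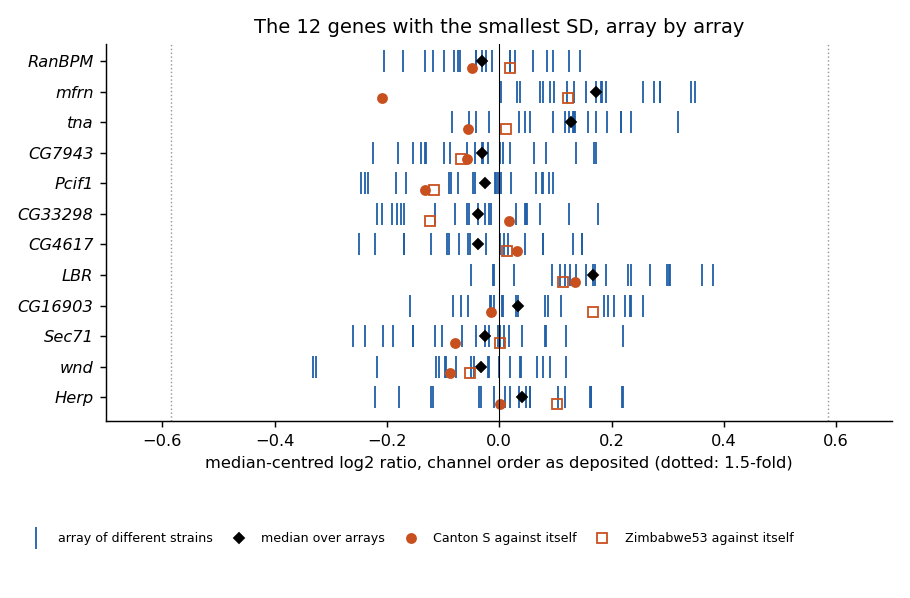
Median-centred log2 ratios (horizontal, channel order as deposited) of the 12 genes with the smallest SD, 1 row per gene; each blue bar is 1 of the 21 arrays of different strains, the diamond their median, the filled circle Canton S against itself and the open square Zimbabwe53 against itself. All bars lie within the dotted lines at 1.5-fold, and mfrn, tna and LBR are centred to the right of 0.

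A constant offset of this kind was present in several members. The ratios kept 1 sign on all measured arrays in 2 of the 100 genes, mfrn and conu, and had at most 2 arrays of the other sign in 7 (7%), compared with 12 of the 722 others (1.66%). A small SD makes it easier to keep 1 sign, so this difference in share follows from the choice. conu lay between -0.51 and -0.06 on all 20 arrays measured, with a median of -0.22. It was at -0.36 for Zimbabwe53 against itself but at 0.01 for Canton S against itself. The other 5 were MTA1-like, Mbs, brwl, cher and Glg1, with offsets, averaged over the exchanged pairings, between -0.18 in MTA1-like and 0.23 in Glg1. An offset shared by all arrays does not count toward an SD. Ranked by the root mean square about 0, which keeps it, 81 of the 100 genes were chosen again.

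The self arrays were compared next, since the choice did not use them. Each shares a number in its title with an array that the choice did use. For Canton S against itself this is the first array of Canton S and Zimbabwe53, and for Zimbabwe53 against itself the second. The meaning of the number is not stated, so the self arrays may not be independent of those arrays. On the array of Canton S against itself, the SD across the 100 genes was 0.112, compared with 0.146 across 680 measured others. On that of Zimbabwe53 against itself it was 0.0891 across the 99 genes measured, compared with 0.109 across 695 others. The genes chosen on arrays of different strains were therefore also less scattered where no strain differed, by 1.31 times and 1.23 times. The median size of their ratio was 0.057 compared with 0.084 on the first of these arrays and 0.051 compared with 0.064 on the second. With 1 array per strain no test was made.

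The lower scatter did not separate the gene groups sharply. Of the 99 members with values on both arrays, 70 (70.7%) lay within 1.1-fold on both, as did 385 of 655 others (58.8%). When the 754 genes with both values were ordered by the root mean square of the 2 and cut into 4 parts of like size, the part with the smallest values held 36 members of 189 genes (19.0%). The next parts held 24, 23 and 16, the last being 8.51% of its 188 genes. The median SD over the arrays of different strains moved only from 0.240 in the first part to 0.269 in the last. The 2 arrays themselves did not deviate together: across the 99 genes their ratios correlated with r = 0.03. Genes on 1 array share its RNA and its slide, so this r is a description.

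The width of the members on arrays of different strains is what the choice made small, and it is set here beside the self arrays as a description. The SD across the 100 genes ran from 0.125 to 0.231 over the 21 arrays, with a median of 0.153, and all 21 lay above both self arrays. In the other genes it ran from 0.256 to 0.460, with a median of 0.346. The lowest of the 21 arrays was thus still wider for the members than the self array of Canton S, at 0.125 compared with 0.112.

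**Figure D3:**
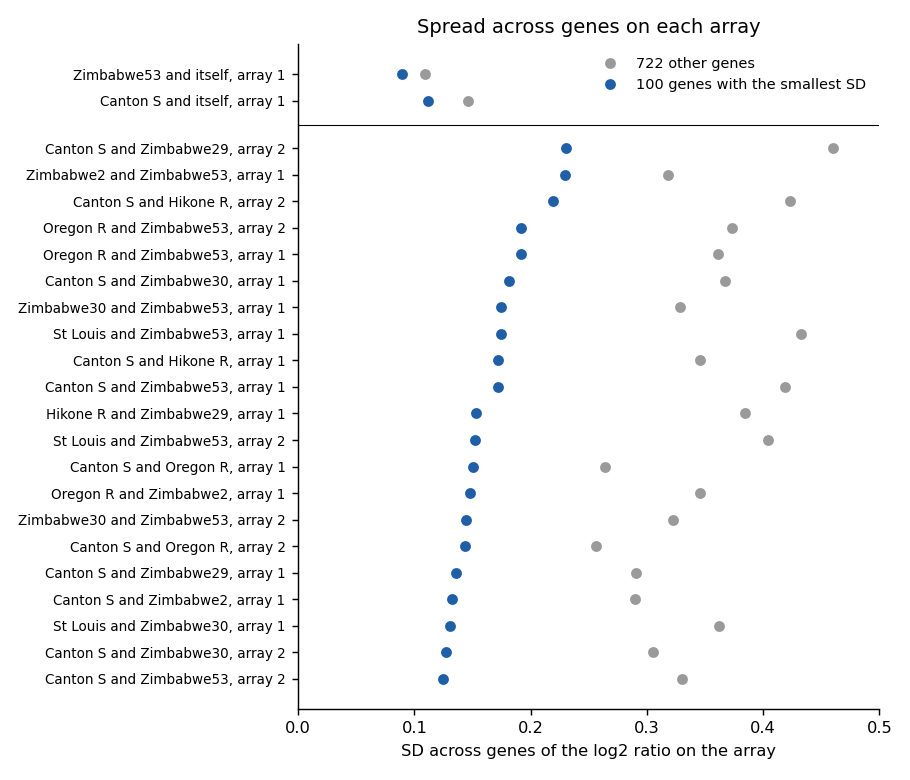
SD across genes of the log2 ratio (horizontal) on each of the 23 arrays (rows), blue for the 100 genes with the smallest SD and grey for the 722 others; the upper 2 rows are the self arrays. The blue points of the 21 arrays of different strains lie between 0.125 and 0.231 and those of the self arrays at 0.112 and 0.0891.

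The widest arrays for the members were the second array of Canton S and Zimbabwe29 (SD 0.231), the array of Zimbabwe2 and Zimbabwe53 (0.229) and the second array of Canton S and Hikone R (0.219). The narrowest was the second array of Canton S and Zimbabwe53 (0.125). The 3 wide arrays had values for 3272, 3774 and 4258 features and the narrowest for 4853. Among the wide arrays, the second arrays of Canton S and Zimbabwe29 and of Canton S and Hikone R also share a number in their titles. The second array of Oregon R and Zimbabwe53 had values for only 3274 features, and its SD of 0.191 was that of the first array of this pairing, with 4704 features. The second array of Canton S and Hikone R gave the lowest or the highest value of 23 members, that of Zimbabwe2 and Zimbabwe53 of 17, and the second array of Canton S and Zimbabwe29 of 16. In the array of Zimbabwe2 and Zimbabwe53 the other genes were only 1.39 times as wide as the members, the lowest ratio of the 21 arrays, where the median was 2.14. The part of the number of features, or of the shared title number, in these spreads was not tested. Without the 2 arrays with the fewest features, the second arrays of Canton S and Zimbabwe29 and of Oregon R and Zimbabwe53, 1032 genes could be ranked and 64 of the 100 were chosen again.

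Exchanged arrays separate a strain difference, which turns its sign with the channels, from an offset, which does not. In the 722 other genes, the 2 arrays of a pairing were anticorrelated across genes in 8 of 8 pairings, with r from -0.76 to -0.24. In the 100 members r ran from -0.41 for Canton S and Zimbabwe53 to 0.33 for Canton S and Oregon R, with a median of 0.10, and was below 0 in 2 of 8. The part of the ratio that turned with the channels had a median SD of 0.125 across members and 0.315 across the others. The part that did not turn had a median SD of 0.121 across members and 0.175 across the others. Noise of single arrays enters both parts. The choice of the members limits the part that turns. It also limits the part that does not turn, except for an offset shared by all arrays. The weaker anticorrelation and the narrower turning part of the members follow from the choice. Their narrower part that does not turn can follow from it too, and all are given as a description.

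The steady part could be set against the self arrays. The offset of a member over the 8 exchanged pairings correlated with its ratio for Zimbabwe53 against itself at r = 0.60 across 99 genes, and at r = 0.58 across the 695 others. With Canton S against itself the correlation was r = 0.04 across 100 members and r = -0.03 across the others. The offset thus went with the ratios of 1 of the 2 self arrays and not of the other. These values are across genes of shared arrays and carry no test.

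Strain levels were fitted next, to put a size on the differences that remain. Arrays of a pairing were turned the same way and averaged after the offset had been subtracted, and the levels of the 8 strains were estimated from the 13 pairings with limma. The largest difference between any 2 strains ranged from 1.06-fold in CG9281 to 1.34-fold in Prosap over the 100 members, with a median of 1.19-fold (log2 0.25, median SE 0.13). In the 722 others the median was 1.38-fold and the largest 35.1-fold. All 100 members stayed under 1.5-fold, compared with 507 of the 722 others. The largest of 28 differences between strains is raised by noise in every gene. The choice limits these differences in the members, so the comparison with the others is a description.

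Among the first 12 genes, the most distant strains differed by 1.09-fold in RanBPM (log2 0.12 ± 0.13 SE, Hikone R and Zimbabwe2), 1.11-fold in mfrn (0.15 ± 0.12, Oregon R and Zimbabwe29) and 1.09-fold in tna (0.13 ± 0.089, St Louis and Zimbabwe53). They differed by 1.14-fold in CG7943, 1.12-fold in Pcif1, 1.17-fold in CG33298, 1.21-fold in CG4617 and 1.14-fold in LBR, with SEs between 0.11 and 0.15 log2. They differed by 1.19-fold in CG16903, 1.15-fold in Sec71, 1.22-fold in wnd and 1.20-fold in Herp, with SEs between 0.11 and 0.14 log2. CG4617, wnd and Herp thus lay above the median of the 100 members, although they are among the first by SD.

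The precision limits how alike the strains can be called. The widest upper end of a 95% interval over the 28 strain differences ranged from 1.31-fold to 1.70-fold per member, with a median of 1.46-fold, and lay under 1.5-fold in 71 of 100. These upper ends are likely too low, since the genes were chosen for small values on the same arrays. How far limma's moderation of the variances makes up for this was not tested. In limma's moderated F test among strains, 48.9% of all 4801 rows and 49.1% of the 822 genes had an adjusted p under 0.05, and 1 of the 100 members did (0 to 7 under other settings and with single arrays left out). The test used the values that chose the members, so nothing is read from that count.

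The member past that test was Prosap, which encodes a Shank scaffold of the postsynaptic density. Its ratios ran from -0.39 to 0.24 with a median of -0.16 (SD 0.170). It lay at -0.07 and 0.05 on the self arrays, and its levels in St Louis and Zimbabwe29 were 1.34-fold apart (log2 0.42 ± 0.14 SE). PhKgamma, the catalytic subunit of phosphorylase kinase, which switches on glycogen breakdown, ran from -0.29 to 0.30 around a median of 0.0059 and gave 0.03 and 0.0066 on those 2 arrays. It differed 1.32-fold between Hikone R and St Louis (log2 0.41 ± 0.13 SE). stc, a zinc finger protein of the NFX1 type, ran from -0.27 to 0.23 with a median of -0.03, gave 0.02 on both, and differed 1.32-fold between Hikone R and St Louis (log2 0.40 ± 0.14 SE). These were the widest of the 100.

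Hikone R was 1 of the 2 extreme strains in 39 members, Oregon R in 31, St Louis and Zimbabwe29 in 29 each and Zimbabwe2 in 28. Zimbabwe30 was extreme in 19, Zimbabwe53 in 14 and Canton S in 11. Of the 21 arrays, 11 carried Canton S and 9 Zimbabwe53, while Hikone R, St Louis, Zimbabwe2 and Zimbabwe29 were on 3 each and Oregon R and Zimbabwe30 on 5 each. In the 722 other genes, Hikone R was also extreme most often (238), followed by Zimbabwe29 (233), Oregon R (196) and St Louis (193). Canton S was extreme least often there (82). Zimbabwe53 was extreme in 182 of them, more often than Zimbabwe2 (162) or Zimbabwe30 (158). The 4 Zimbabwe strains and the 4 others differed in their mean level by a median of 0.047 log2 in the members and 0.11 in the other genes. The choice limits this difference in the members too. The largest such difference of a member was 1.11-fold, in Prosap.

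**Figure D4:**
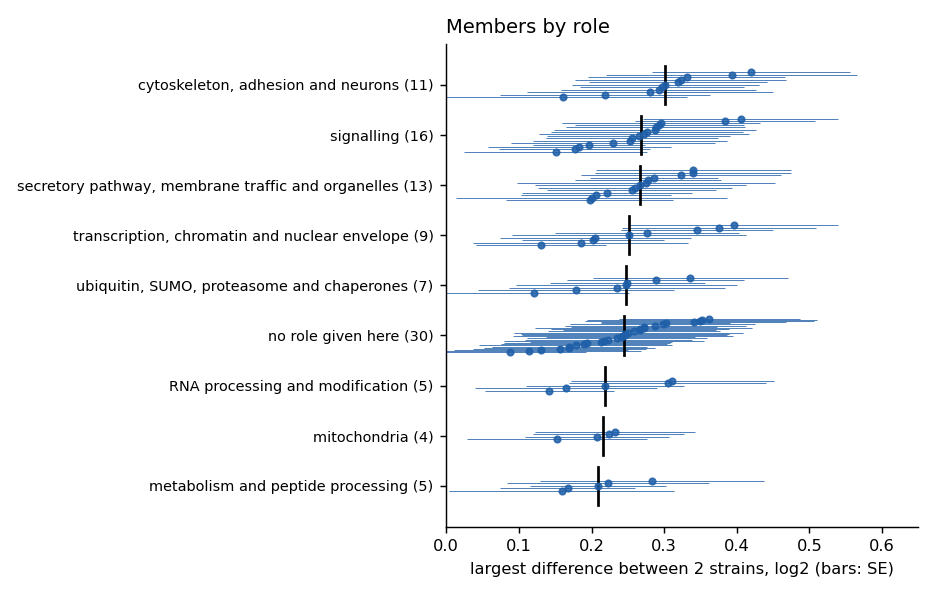
Largest difference between any 2 of the 8 strains in log2 (horizontal; bars are SE) for each of the 100 genes, grouped by role (rows, with the number of genes); black bars are medians. All points lie between 0.087 and 0.42 log2, and the roles overlap over most of that range.

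By role, 70 members could be placed from textbook knowledge and 30 are given no role here, 25 of them known only by a CG number. Roles were given to the members only, so the group sizes cannot be compared with shares among the other genes. These sizes therefore do not show which roles are more frequent in the members than elsewhere. The largest group was signalling, with 16 genes (SD 0.125 to 0.173). Its kinases were wnd, msn (SD 0.157), which acts above the JNK pathway, gek (0.173), an effector of Cdc42, PEK (0.164), which slows translation under stress in the endoplasmic reticulum, and PhKgamma (0.171). sax (0.171) is a receptor for BMP ligands, Axn (0.144) the scaffold that marks beta-catenin for destruction, and Bili (0.167) an inhibitor of Wnt signalling. PpD3 (0.169) is a serine/threonine phosphatase and Mbs (0.139) the targeting subunit of myosin phosphatase. Mob4 (0.165) belongs to the Mob kinase adaptors, ric8a (0.173) assists G protein alpha subunits, and mio (0.148) is part of the GATOR complex that reports amino acids to TOR. Sulf1 (0.151) trims sulphates from heparan sulphate, IA-2 (0.162) is a phosphatase-like protein of dense core vesicles, and conu (0.133) is described above. PpD3 ran from -0.22 to 0.36 with a median of -0.0080, gave 0.04 and -0.0049 on the self arrays and differed 1.20-fold between the most distant strains.

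Membrane traffic and organelles had 13 members (SD 0.114 to 0.173). Besides Sec71, Herp and CG33298, these were betaCOP (0.170), a subunit of the COPI coat that carries cargo back from the Golgi, and Vps4 (0.149), the ATPase that takes the ESCRT machinery apart. wls (0.171) escorts Wnt proteins to the surface, Glg1 (0.173) is a Golgi glycoprotein and Mgat2 (0.169) an enzyme of N-glycan synthesis there. Pex16 (0.171) is needed to build peroxisomes, Flo1 (0.134) is a flotillin, btsz (0.168) a synaptotagmin-like protein, fwe (0.156) a membrane protein of synaptic vesicles and of cell competition, and prtp (0.167) an endoplasmic reticulum protein that also marks dying cells for engulfment. Vps4, for example, ran from -0.27 to 0.28 with a median of 0.04, and its levels differed 1.15-fold between the most distant strains.

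Of the 11 genes of cytoskeleton, adhesion and neurons (SD 0.134 to 0.172), SCAR (0.149) activates the Arp2/3 complex that branches actin, and cher (0.156) is filamin, which crosslinks it. futsch (0.172) is a microtubule-associated protein of axons, spas (0.171) is spastin, which severs microtubules, and Unc-76 (0.134) links cargo to kinesin. Dscam1 (0.164), known for its very many splice forms, and plum (0.168) are immunoglobulin-family proteins of neurons. sinu (0.149) is a claudin of septate junctions, wech (0.157) helps attach muscle to tendon, Lmpt (0.165) is a LIM domain protein, and Prosap is described above.

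Transcription, chromatin and the nuclear envelope gave 9 members (SD 0.106 to 0.171). CtBP (0.151) and gro (0.171), or Groucho, are corepressors recruited by many transcription factors. MTA1-like (0.127) is part of the NuRD remodelling and deacetylase complex, MED17 (0.161) of Mediator, and tna and LBR are described above. MTF-1 (0.167) switches on metallothionein genes when metal is in excess, and fd59A (0.166) and stc (0.136) are transcription factors. MED17 ran from -0.33 to 0.24 with a median of -0.02, gave -0.16 and -0.07 on the self arrays of Canton S and Zimbabwe53 and differed 1.19-fold between the most distant strains. CtBP lay between -0.43 and 0.11 with a median of -0.10, and gro between -0.36 and 0.28 with a median of -0.07.

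Protein turnover and folding gave 7: Rpn6 (SD 0.157), a lid subunit of the proteasome, Cul2 (0.153), a cullin scaffold of ubiquitin ligases, Uba2 (0.153), a subunit of the enzyme that activates SUMO, Topors (0.164), a ligase for ubiquitin and SUMO, and the chaperone partners p23 (0.144) and Droj2 (0.169), with RanBPM. Rpn6 ran from -0.21 to 0.40 with a median of 0.06, gave 0.11 and 0.10 on the self arrays of Canton S and Zimbabwe53 and differed 1.18-fold between the most distant strains. Uba2 ran from -0.38 to 0.19 with a median of 0.02, gave 0.21 and 0.05 and differed 1.13-fold. Droj2 ran from -0.26 to 0.33 with a median of 0.09, gave -0.12 and 0.14 and differed 1.22-fold. Only Uba2 lay beyond its range of other arrays on a self array, of these 3. RNA processing gave 5, namely Rm62 (0.128), a DEAD-box helicase, ssx (0.154), the sister gene of Sex-lethal, beag (0.160), a relative of a splicing factor, Dus1 (0.158), which modifies transfer RNA, and Pcif1.

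The 4 mitochondrial genes were mfrn, spoon (SD 0.140), an anchor for protein kinase A on the outer membrane, prel (0.146), a protein of the intermembrane space, and Las (0.148), lipoic acid synthase. Metabolism and peptide processing gave Start1 (0.132), which has a cholesterol-binding domain, Pal1 (0.141), which amidates neuropeptides, Nep2 (0.147), a neprilysin that degrades peptides, Cds (0.158), which makes CDP-diacylglycerol for phosphoinositides, and Aldh-III (0.165), an aldehyde dehydrogenase.

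The 30 genes without a role here covered nearly the full span of SD. Next to CG7943, CG4617 and CG16903, described above, they held CG6051 (SD 0.127), CG8004 (0.129), CG10026 (0.132), CG13875 (0.140), brwl (0.142), CG1677 (0.144), CG9795 (0.146) and CG14646 (0.147). CG9281 and CG13850 (both 0.148), Neos (0.153), CG7872 (0.154), CG11247 (0.155), CG4287 (0.159) and CG42540, CG8668 and tay (all 0.160) followed. The widest were CG6398 (0.162), CG33062, CG17233 and CG9098 (all 0.165), NKAIN (0.166), sowah (0.167), CG7173 (0.168), CG14408 (0.169), CG42724 (0.170) and CG5541 (0.173). CG numbers made up 26% of the members and 30.2% of the other genes.

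Lists of genes by symbol gave a further view of which functions were among the members. The members are 12.2% of the 822 genes. Members were 3 of 14 genes of vesicle traffic and coats (Sec71, Vps4, betaCOP; median SD of the 14, 0.221), 2 of 10 of the ubiquitin pathway (Uba2, Cul2; 0.267), 1 of 6 proteasome genes (Rpn6; 0.251), 1 of 6 chaperones (Droj2; 0.261), 1 of 4 of the polymerase and Mediator list (MED17; 0.215) and 1 of 11 of the signalling list (PpD3; 0.201). The median over all 822 genes was 0.254. The signalling list misses members named above, such as wnd, msn, gek, PEK, PhKgamma and Mbs. The ubiquitin list likewise misses Topors and the chaperone list p23, so these counts are not shares of a function.

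No member was on the lists of 10 translation factors and tRNA synthetases (median SD 0.229), 9 splicing and processing genes (0.231) or 8 nuclear transport genes (0.257). The same held for the lists of 9 cytoskeleton and motor genes (0.262) and 5 chromatin genes (0.191). The lists match symbols only and miss members described above with such roles. Examples are SCAR and cher for the cytoskeleton, MTA1-like for chromatin and beag for RNA processing. None came from 3 V-type ATPase subunits (0.305), 2 oxidative phosphorylation genes (0.325), 2 cell cycle genes (0.340) or the only mitochondrial ribosome gene (0.244). None came from the lists of tissue-restricted genes either. Median SDs were 0.575 for 7 detoxification enzymes, 0.528 for 5 testis genes and 0.477 for 5 cuticle, protease and secreted genes. All lists were chosen with earlier results of these data known, so these high medians are no independent contrast with the other lists. The lists overlap, as Prosbeta4R2 (SD 0.656) was the widest gene of both the proteasome and the testis list. With so few genes per list, absence from the members says little about a function, and no list was tested.

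The members lay on all 5 large chromosome arms in about the shares of the 822 genes, which the Release 6 table names in full. The X held 18 members (18%, compared with 17.3% of the 822), arm 2L 13 (13% and 16.9%), 2R 18 (18% and 18.7%), 3L 24 (24% and 21.3%) and 3R 27 (27% and 24.6%). None of the 10 genes on chromosome 4 was a member. Among protein-coding genes, 3 pairs of members were direct neighbours: Aldh-III and wech, Uba2 and Cds, and CG16903 and Unc-76. Such pairs were not counted among the other genes, so nothing is read from this number.

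Genes whose value is the average of several features were 7 of the 100 (7%) and 14 of the 722 others (1.94%), so 7 of the 21 such genes were members. RanBPM, at rank 1, is the average of 2 features with SDs of 0.133 and 0.201 whose ratios correlated at r = -0.47 over the arrays. The 2 features of spoon had SDs of 0.153 and 0.276 (r = -0.33), and those of CG42540 0.129 and 0.309 (r = -0.13). In Lmpt and Prosap no feature alone had an SD below the limit of the choice. The features of Unc-76 and CG42724 went together better, with r = 0.24 and r = 0.49. The other 93 members rest on 1 feature each.

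The values furthest from 0 on the self arrays came from msn, conu and CG7872. msn lay at 0.39 for Canton S against itself and at -0.11 for Zimbabwe53 against itself, while its 20 other arrays ran from -0.43 to 0.27 with a median of -0.02. Its value for Canton S against itself thus lay outside the range of all arrays of different strains. CG7872 lay at 0.32 and -0.02, with other arrays from -0.32 to 0.22 and a median of -0.05. Their strain levels differed by at most 1.11-fold in msn, 1.17-fold in conu and 1.19-fold in CG7872, so these genes were not among the members with wide strain differences. SCAR, named after its values were seen, had the smallest root mean square on the 2 arrays (0.0028).

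How far a low SD carries over to other arrays was asked by choosing on some arrays and measuring on the rest, a comparison added after the data had been seen. With the 100 lowest genes chosen on the 13 first arrays of the pairings, the median SD was 0.144 on those arrays and 0.188 on the 8 second arrays, which had no part in the choice. The other 722 genes had a median of 0.275 on the same 8 arrays. Of the 100 genes, 81 lay below the median of all 822 there, and 32 were again among the 100 lowest, where 12.2% of all genes are. Chosen on the 8 second arrays, the median SD was 0.129, and 0.195 on the 13 first arrays, compared with 0.258 in the rest, with 86 below the median and 32 among the lowest 100. On arrays not used, the chosen genes were thus wider than on those used and narrower than the rest. The second arrays hybridised the same RNA pools as the first, so this carries over between arrays and not between flies. Some second arrays also share a number in their titles with a first array of another pairing. The arrays used and not used may therefore not be independent.

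**Figure D5:**
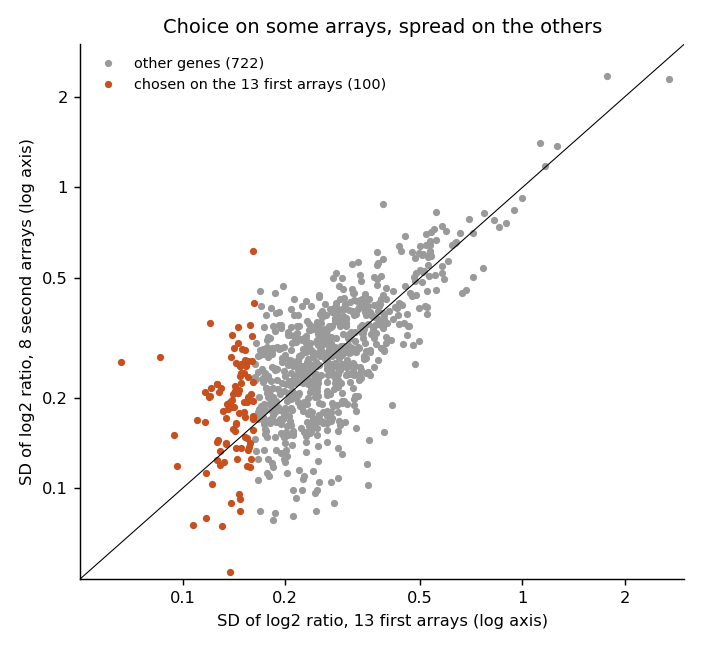
SD of the log2 ratio of each of the 822 genes on the 13 first arrays (horizontal, log axis) and on the 8 second arrays (vertical, log axis); orange points are the 100 genes chosen on the 13 first arrays, grey points the 722 others, and the line marks equal SDs. The orange points have a median of 0.144 across and 0.188 upward, and 81 of them lie below the median of all genes upward.

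Single members are less secure than the group. In 66 of the 100, the gene stayed among the 100 lowest whichever of the 21 arrays was left out, and 49 of these 66 were in the first 50 ranks. Under 7 other ways to measure the spread, centre or scale the arrays or take a gene's features, among them the median absolute deviation, the distance from 0 and the spread of fitted strain levels, 28 stayed throughout. Both conditions were met by 24 genes, which included tna, CG7943, Pcif1, CG33298, CG4617, CG16903, Sec71, Herp, Rm62, Start1, spoon, Axn, p23, prel, mio, Las, Vps4 and msn. RanBPM, mfrn and LBR did not stay under all of the 7. At the limit, ric8a stayed for 5 of the 21 arrays left out and Glg1, CG5541 and gek for 6 each.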

How the data were processed

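Ratios of 2 fluorescent channels were measured on 23 spotted cDNA arrays with RNA of adult Drosophila males, labelled with cyanine 3 and cyanine 5. The values used are those the authors deposited, read as log10 ratios. Neither the base, the numerator channel nor any normalization is given in the sources used here, and array medians before centring lay between -0.157 and -0.0117 log2. Values were turned into log2, and the median of each array was set to 0. Gene names came from the platform annotation, and all 822 genes were matched to the RefSeq table of Release 6. Promoter and protein sequences were not analysed here.

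The channel offset of a gene was its mean over the exchanged pairs. It was subtracted, arrays of a pairing were averaged, and strain levels were fitted over the whole table of 4801 rows with limma 3.58.1 in R 4.3.3, weighted by the number of arrays, with at least 10 pairings and 3 exchanged pairs measured. The p-values are those of limma's moderated F test, with Benjamini-Hochberg adjustment over all rows, and reflect the spread between arrays of pooled RNA. The fit was also run on simulated data with noise independent between arrays. That may not hold for the real arrays, so the run does not check the p-values given here. The error of the offset itself is not counted in the fit, so its p-values are somewhat too small. Tables were made with Python 3.11.15 and pandas 2.3.3.

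The genes, the roles and the lists were chosen with earlier results of these data known, and the lists were cleared of false symbol matches after the symbols had been seen. Every member is named with its SD. Values are given in full for the 12 smallest SDs, the 3 genes on each side of the limit, the 3 largest values on the self arrays, the 3 widest strain ranges and the lowest member of each list. Other measures of spread, centrings, scalings, limits on missing values and fits were tried, and each array was left out in turn.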

Additional observations from a re-analysis of the deposited data

How the results depend on the processing

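Of the 100 genes, 57 were chosen again with the median absolute deviation, 64 with the SD of the fitted strain levels, 59 of 504 genes that had values on 21 of 21 arrays, and 46 when 1386 genes with 15 or more arrays could be chosen. In choices added after the data had been seen, 64 were chosen again without the 2 arrays with the fewest features and 50 on the 8 second arrays. In these cases with other limits on missing values the set of genes that could be chosen changed, and for the rest the cause was not tested. Leaving out 1 array at a time kept 79 to 96 of them, with a median SD of 0.147 to 0.158. The SD of the fitted strain levels, a different quantity, had a median of 0.0761. The spread on the self arrays was 0.101 as an SD and 0.0540 as a median absolute value, and the other genes were 1.23 to 1.39 times as wide in each of the settings run. The F test called 2348 of 4801 rows, 1124 of 1705 (65.9%) with 21 of 21 arrays, and 1770 to 2561 with 1 array left out. Members past it numbered 1, compared with 0 without the offset subtracted, 0 with equal weights, 4 with single arrays and a dye term, 2 of 62 with 21 of 21 arrays, and 0 to 3 with 1 array left out. Some arrays of different pairings share a number in their titles, whose meaning is not stated. Added after the data had been seen, a fit of single arrays with a dye term and this number as a random block called 2444 rows and 7 members. Deviations from the fit correlated over 0.1 in 4 of the 6 same-numbered pairs (r from -0.46 to 0.31, median 0.15). They did so in 47 of 204 other pairs (r from -0.76 to 0.77, median -0.07). The correlation within a number, as estimated for the fit with blocks, was 0.46. What the numbers stand for was not tested, and the main fit does not use them. Signal over background is unknown here, so its limit on weak spots could not be given.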
